A study of Mus musculus with 9 samples.

Results

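The genes followed here belong to transforming growth factor beta (TGF-beta) signalling in rat liver, 10 in all: the 3 ligand genes Tgfb1, Tgfb2 and Tgfb3, the latency protein gene Ltbp1, the Smad genes Smad3, Smad6 and Smad7, the Smad repressor gene Skil, and the response genes Ctgf and Tgfbi. They were picked by symbol with earlier results of these data known, and all 10 were found among the 37203 gene entries of the count table. The 9 libraries form 3 groups of 3. Schisandrin B animals had carbon tetrachloride (CCl4), a solvent that liver cells turn into a toxic radical, as 50% CCl4 in olive oil at 2 mL/kg, given 3 times a week for 8 weeks, and after the first 4 weeks they also had daily schisandrin B, a lignan of Schisandra fruit, for 4 weeks. Fibrosis animals had the same CCl4 course without the compound. Normal animals had olive oil in place of CCl4. The labels describe all of them as male Wistar rats. The study used schisandrin B at 25 and 50 mg/kg, and the labels do not say which dose the 3 libraries represent, nor whether each library is a separate animal, so the errors given here describe how much libraries differed, which may be technical variation.

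TGF-beta is secreted in an inactive complex with its own propeptide, which LTBP proteins tether to the matrix until integrins, proteases or thrombospondin release the ligand. The ligand joins type II and type I receptors, which phosphorylate Smad2 and Smad3, and these enter the nucleus with Smad4. Smad7, and for the BMP branch mainly Smad6, block the receptors in a negative feedback, and SnoN, the product of Skil, represses Smad-driven genes. In the liver the pathway is known for turning hepatic stellate cells into matrix-producing myofibroblasts and for restraining hepatocyte growth.

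The libraries held 10320299 to 16255167 counts, and 14581 genes had enough counts to be tested. Levels are TMM-scaled CPM, which set each gene's count against its library's effective size, and a change is a log2 fold change with its SE from edgeR, called when the Benjamini-Hochberg adjusted p over all tested genes was under 0.05. The Y-linked genes Kdm5d and Eif2s3y had 0 counts in all normal libraries and means of 12.3 and 11.8 CPM in schisandrin B libraries and of 8.04 and 10.4 CPM in fibrosis libraries, against labels that call every animal male, while Ddx3y, also Y-linked, was low throughout, with means of 0.862, 1.24 and 1.48 CPM in schisandrin B, fibrosis and normal libraries. In both comparisons with normal libraries, sex and treatment therefore cannot be told apart. Fibrosis replicate 1 stood apart from its group, with a chi-square per degree of freedom of 105 and 127 against replicates 2 and 3, where the other pairs within groups gave 16.1 to 47.4. Albumin, which marks hepatocytes, took 13.1% to 14.3% of counts in schisandrin B, 4.18% to 7.65% in fibrosis and 13.9% to 17.1% in normal libraries. Scaling by library totals alone shifted the median gene by 0.43 in fibrosis against normal and by -0.27 in schisandrin B against fibrosis on the log2 scale, and moved the share of calls that were higher to 74.7% and 32.6%, against 52.7% and 47.6% with TMM.

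In fibrosis against normal libraries, Ltbp1 and Skil rose, and Smad6, Smad7 and Tgfbi fell. The 3 ligand genes, Smad3 and Ctgf were not called. This is 5 of 10 genes, where 48.3% of all tested genes were called, so the count does not stand out from the background (2 higher beside 25.4% and 3 lower beside 22.9%). The groups did not overlap in 6 of the 10, against 55.8% of all tested genes. Tgfb3, Smad7 and Tgfbi rose, and Ltbp1 and Smad3 fell, in schisandrin B against fibrosis libraries. This is again 5 of 10, where 47.3% of all tested genes were called (3 higher beside 22.5% and 2 lower beside 24.8%), and 4 did not overlap, against 56.8%. Between schisandrin B and normal libraries edgeR called 0 of the 10, where 10.5% of all tested genes were called (5.25% higher and 5.25% lower). There 3 members had an unadjusted p under 0.05, DESeq2 called 2 (Tgfb1 and Tgfbi, both lower), limma voom called 0, and 5 members did not overlap, against 38.7% of all tested genes. At an adjusted p under 0.01, 4 members were called in fibrosis against normal (33.7% of all tested genes), 2 in schisandrin B against fibrosis (32.8%) and 0 in schisandrin B against normal (3.75%). The first and second comparisons share the fibrosis libraries, so opposite directions in them are not independent.

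**Figure D1:**
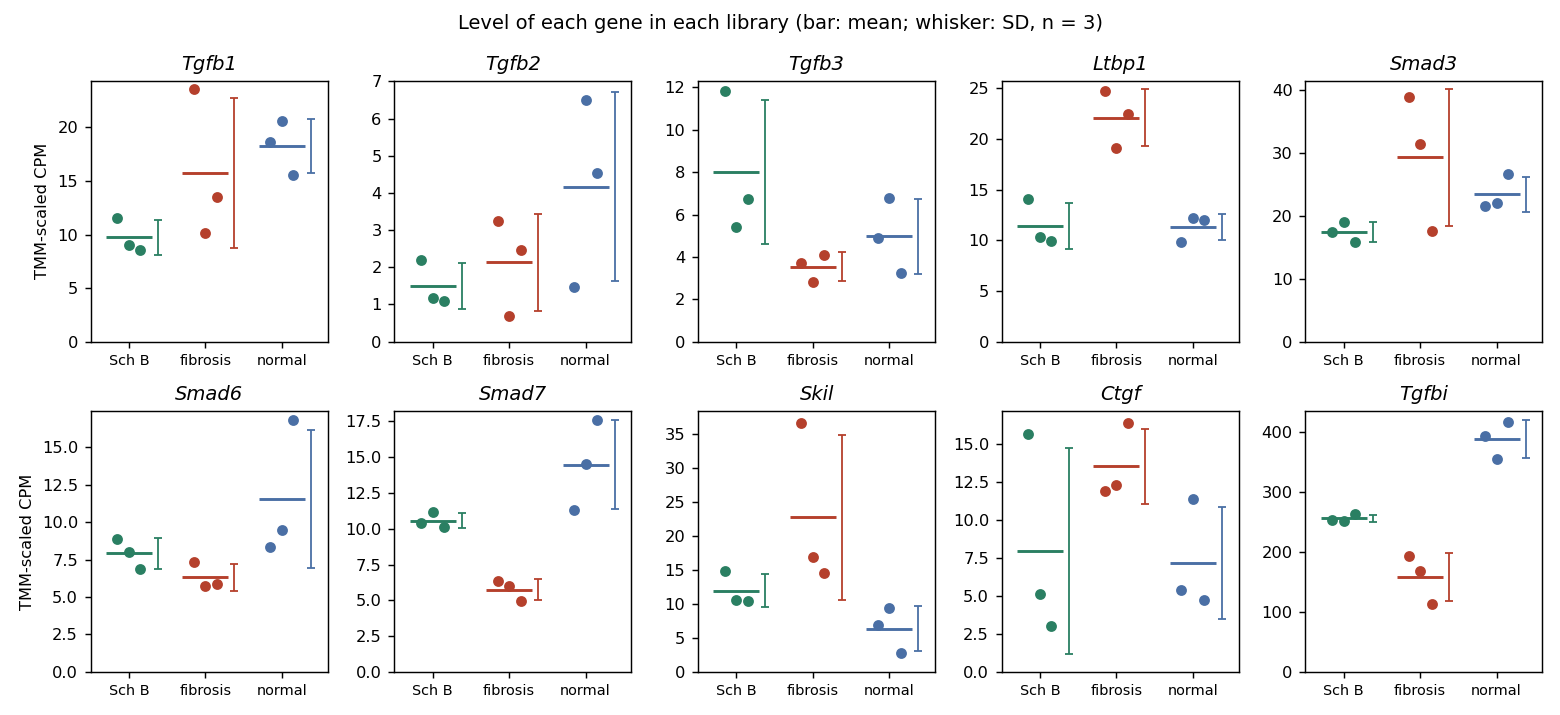
Level of each of the 10 genes in TMM-scaled CPM (vertical axes, linear from 0) in the 3 schisandrin B (Sch B), 3 fibrosis and 3 normal libraries, with a point per library, a bar for the mean and a whisker for the SD. Ltbp1 in fibrosis libraries, 19.1 to 24.8 CPM, lies above all other libraries, and Smad7 and Tgfbi in fibrosis libraries lie below all others.

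Among the ligands, Tgfb1 encodes the main isoform in liver injury. Its level was 11.6, 9.04 and 8.58 CPM in schisandrin B libraries, 23.6, 10.1 and 13.5 CPM in fibrosis libraries, and 18.6, 20.6 and 15.5 CPM in normal libraries. Fibrosis replicate 1 held the highest value of all 9 libraries, and fibrosis replicates 2 and 3 both lay below every normal library. The fibrosis group thus spanned the normal group, and it overlapped the schisandrin B group. The change in fibrosis against normal was -0.22 ± 0.28 (SE) with an edgeR adjusted p of 0.545. It was -0.62 with a call (adjusted p 0.0306) without fibrosis replicate 1 and 0.02 (adjusted p 0.967) without fibrosis replicate 2, and with library totals it was 0.18 (adjusted p 0.606). Schisandrin B libraries lay below all normal libraries, at -0.91 ± 0.29 with an edgeR adjusted p of 0.0662, and the 95% interval of this difference ran from -1.54 to -0.28. That difference was called without fibrosis replicate 1 (adjusted p 0.00746) or fibrosis replicate 2 (adjusted p 0.0373), libraries of neither group compared, and it was called in 5 of 19 alternatives in all. Against fibrosis the schisandrin B value was -0.69 ± 0.29 (edgeR adjusted p 0.0671), and it was called without fibrosis replicate 2 (-0.93, adjusted p 0.0162), with library totals (-0.94, adjusted p 0.0176) and without a low-count filter (-0.72, adjusted p 0.0483).

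Tgfb2 and Tgfb3 encode the other ligand isoforms. Tgfb2 was close to the limit of this depth, with 9 counts in fibrosis replicate 2 (exact Poisson 95% interval 4.12 to 17.1, counting error only) and 96 in normal replicate 2. It stood at 2.20, 1.17 and 1.10 CPM in schisandrin B libraries, 3.24, 0.681 and 2.47 CPM in fibrosis libraries, and 1.46, 6.50 and 4.53 CPM in normal libraries. The groups overlapped in every comparison, and none was called, with the widest gap in schisandrin B against normal (95% interval -2.86 to -0.14, edgeR adjusted p 0.147). Tgfb3 was 11.9, 5.40 and 6.76 CPM in schisandrin B libraries, 3.72, 2.80 and 4.11 CPM in fibrosis libraries, and 4.90, 6.77 and 3.24 CPM in normal libraries. All schisandrin B libraries lay above all fibrosis libraries, and Tgfb3 rose by 1.16 ± 0.36 (edgeR adjusted p 0.0207). The call was lost without schisandrin B replicate 1 (0.82, adjusted p 0.0937), which held the highest value, without fibrosis replicate 2 (1.02, adjusted p 0.0688) and with library totals (0.89, adjusted p 0.0854). Tgfb3 was 0.68 ± 0.36 higher in schisandrin B than in normal libraries without a call (edgeR adjusted p 0.258), and in fibrosis against normal its change was -0.49 ± 0.37 (adjusted p 0.291).

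Ltbp1, which binds latent TGF-beta to fibrillin and fibronectin fibres, separated the fibrosis libraries from both other groups. It had 14.0, 10.4 and 9.95 CPM in schisandrin B libraries, 24.8, 19.1 and 22.4 CPM in fibrosis libraries, and 9.88, 12.2 and 11.98 CPM in normal libraries. The other groups overlapped each other. Ltbp1 rose 1.95-fold in fibrosis against normal libraries (0.96 ± 0.20 on the log2 scale, edgeR adjusted p 0.00206). With schisandrin B it fell by 0.95 on the log2 scale against fibrosis (SE 0.20, edgeR adjusted p 0.0023). The value in schisandrin B against normal was 0.01 ± 0.20, with a 95% interval of -0.43 to 0.45, so a difference of that size in either direction was not excluded by these libraries. Both calls for Ltbp1 held in 19 of 19 alternatives.

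**Figure D2:**
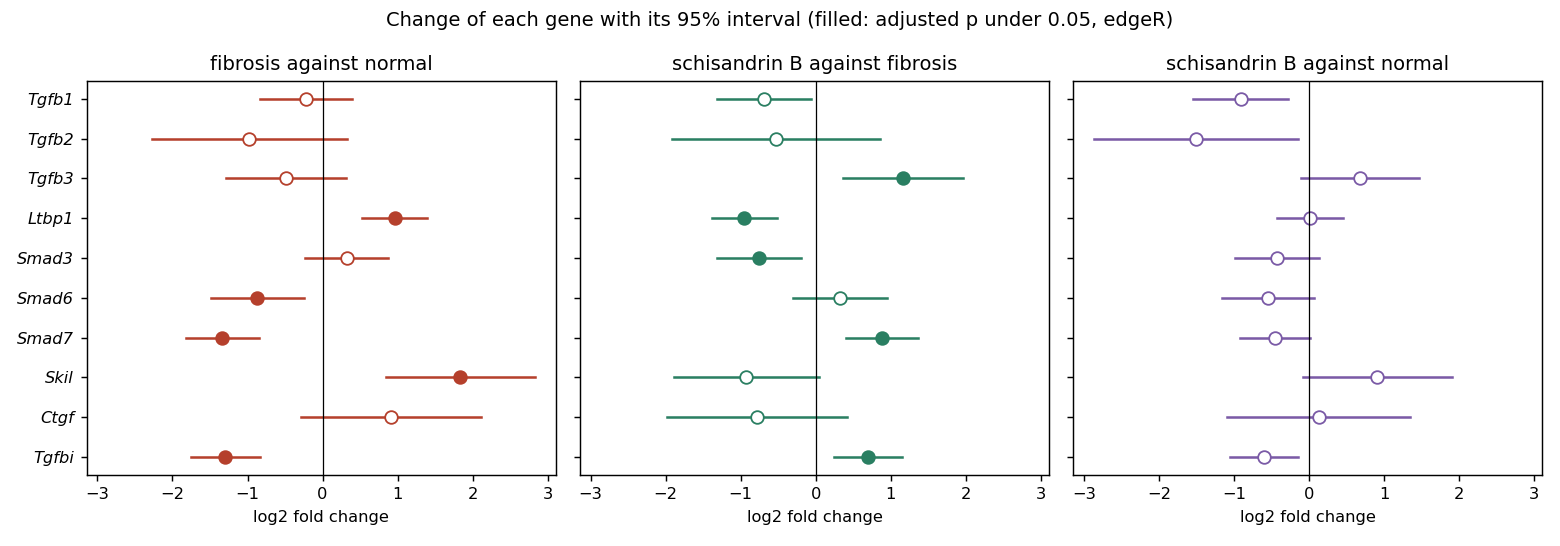
Log2 fold change (horizontal axes) of the 10 genes in fibrosis against normal, schisandrin B against fibrosis and schisandrin B against normal, each with its 95% interval from edgeR, filled where the adjusted p was under 0.05. Ltbp1 lies at 0.96 in fibrosis against normal and at 0.01 in schisandrin B against normal, and no point is filled in the third panel.

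Smad3 carries the signal of the TGF-beta receptors to the nucleus. It stood at 17.4, 19.0 and 15.8 CPM in schisandrin B libraries, 38.9, 31.5 and 17.5 CPM in fibrosis libraries, and 21.6, 22.1 and 26.6 CPM in normal libraries. Fibrosis replicate 3 lay within the schisandrin B range while the other fibrosis libraries were the highest of all. Smad3 fell by 0.75 on the log2 scale in schisandrin B against fibrosis (SE 0.26, edgeR adjusted p 0.0307). This call was lost in 9 of 19 alternatives, among them the omission of fibrosis replicate 1 (adjusted p 0.0937), fibrosis replicate 2 (0.0744), or schisandrin B replicate 1 (0.0956), 2 (0.0593) or 3 (0.103), upper-quartile scaling (0.0513) and limma voom (0.0651). In fibrosis against normal the Smad3 value, 0.32 ± 0.25, missed the threshold (edgeR adjusted p 0.316). It passed without fibrosis replicate 3 (0.59, adjusted p 0.0268) and with library totals (0.72, adjusted p 0.0161).

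The inhibitory Smads were on average lowest in fibrosis libraries. Smad7, which TGF-beta itself induces and which blocks the type I receptor, had 10.4, 11.2 and 10.1 CPM in schisandrin B libraries, 6.31, 5.98 and 4.93 CPM in fibrosis libraries, and 11.3, 14.5 and 17.6 CPM in normal libraries. The 3 groups did not overlap, with fibrosis lowest, schisandrin B between and normal highest. In fibrosis against normal Smad7 fell by 1.34 on the log2 scale (SE 0.22, edgeR adjusted p 0.000473), and in schisandrin B against fibrosis it rose 1.84-fold (0.88 ± 0.22, edgeR adjusted p 0.0065), and both calls held in 19 of 19 alternatives. The remaining gap of schisandrin B to normal was -0.45 ± 0.22 without a call (edgeR adjusted p 0.206).

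Smad6, the inhibitor best known for the BMP branch, had 8.89, 8.02 and 6.85 CPM in schisandrin B libraries, 7.37, 5.75 and 5.87 CPM in fibrosis libraries, and 8.33, 9.48 and 16.8 CPM in normal libraries. Normal replicate 3 was far above the other libraries, and schisandrin B overlapped both other groups. Smad6 fell by 0.87 on the log2 scale in fibrosis against normal (SE 0.28, edgeR adjusted p 0.0247). The call was lost without normal replicate 3 (-0.50, adjusted p 0.134), fibrosis replicate 2 (-0.81, adjusted p 0.0707) or fibrosis replicate 3 (-0.81, adjusted p 0.0669), and with library totals (-0.43, adjusted p 0.221). The value in schisandrin B against fibrosis was 0.32 ± 0.29 without a call (edgeR adjusted p 0.377).

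Skil encodes SnoN, a repressor that holds Smad complexes inactive and whose gene is itself a TGF-beta target. It had 14.8, 10.6 and 10.5 CPM in schisandrin B libraries, 36.7, 16.9 and 14.6 CPM in fibrosis libraries, and 6.87, 9.35 and 2.75 CPM in normal libraries. The fibrosis and schisandrin B libraries were each above all normal libraries, and fibrosis replicate 3 lay just under schisandrin B replicate 1. Skil rose 3.56-fold in fibrosis against normal (1.83 ± 0.45, edgeR adjusted p 0.00662), a call that held in 19 of 19 alternatives with values of 1.31 to 2.23. Against fibrosis the schisandrin B value was -0.92 ± 0.43 (edgeR adjusted p 0.104), called in 1 alternative, library totals (-1.15, adjusted p 0.0418). Against normal it was 0.91 ± 0.45 (edgeR adjusted p 0.228), so the schisandrin B libraries were set apart by no call from either group.

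The response genes Ctgf and Tgfbi differed in direction. Ctgf encodes connective tissue growth factor, a matricellular protein induced by TGF-beta and by YAP. It had 15.7, 5.10 and 3.01 CPM in schisandrin B libraries, 11.9, 12.3 and 16.4 CPM in fibrosis libraries, and 5.41, 11.4 and 4.70 CPM in normal libraries. The fibrosis libraries were all above the normal ones, with normal replicate 2 close under them, and schisandrin B libraries ranged over 5.20-fold. Ctgf was 0.91 ± 0.54 higher in fibrosis than in normal without a call (edgeR adjusted p 0.189; not called in any of 19 alternatives). In schisandrin B against fibrosis its value was -0.78 ± 0.54 without a call (edgeR adjusted p 0.264), and without schisandrin B replicate 1 it was -1.67 with a call (adjusted p 0.0111). The 95% interval with all libraries, -1.98 to 0.42, shows how little this gene could be resolved here.

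Tgfbi encodes a secreted matrix protein that binds integrins and was named for its induction by TGF-beta in cultured cells. It was the most counted of the 10 genes, with 254, 251 and 263 CPM in schisandrin B libraries, 193, 168 and 114 CPM in fibrosis libraries, and 394, 354 and 416 CPM in normal libraries. The 3 groups did not overlap, in the same order as for Smad7. Tgfbi fell by 1.30 on the log2 scale in fibrosis against normal (SE 0.21, edgeR adjusted p 0.000444), with a call in 19 of 19 alternatives. Whether TGF-beta activity differed between these groups was not tested. In schisandrin B against fibrosis it rose 1.62-fold (0.70 ± 0.21, edgeR adjusted p 0.0173), a call lost without schisandrin B replicate 3 (0.68, adjusted p 0.0526). It stayed 0.60 ± 0.21 below normal on the log2 scale without a call in edgeR (-0.60, adjusted p 0.0902), and was called in 4 of 19 alternatives: without fibrosis replicate 1 (adjusted p 0.0338) or 3 (0.0385), with DESeq2 (0.0475) and in a fit of the 2 groups alone (0.0111).

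Ratios of raw counts within a library do not depend on scaling. The pairs were chosen after the values had been seen, 6 pairs in 3 comparisons, and with 3 against 3 libraries no exact permutation test can go below p = 0.1, so they are given as a description. Smad3 counts over Smad7 counts were 1.67, 1.70 and 1.56 in schisandrin B libraries, 6.17, 5.27 and 3.55 in fibrosis libraries, and 1.90, 1.52 and 1.52 in normal libraries. The activating Smad thus stood far higher relative to the inhibitory one in every fibrosis library, and schisandrin B and normal libraries overlapped. Skil counts over Smad7 counts were 1.42, 0.948 and 1.04 in schisandrin B libraries, 5.81, 2.82 and 2.96 in fibrosis libraries, and 0.606, 0.645 and 0.157 in normal libraries, with no overlap between any groups.

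Within the ligands, Tgfb3 counts over Tgfb1 counts were 1.02, 0.597 and 0.787 in schisandrin B libraries, 0.158, 0.276 and 0.304 in fibrosis libraries, and 0.263, 0.329 and 0.208 in normal libraries. The schisandrin B libraries were above all others, while fibrosis and normal overlapped, so the balance of the 2 isoform transcripts in schisandrin B libraries was unlike that in normal libraries too. Ltbp1 counts over Tgfb1 counts were 1.21, 1.15 and 1.16 in schisandrin B libraries, 1.05, 1.89 and 1.66 in fibrosis libraries, and 0.530, 0.592 and 0.771 in normal libraries. All 6 CCl4 libraries exceeded all normal libraries in this ratio. Leaving out any single library kept the sign of each group difference in these count ratios apart from Smad3 over Smad7 in schisandrin B against normal, which ran from -0.05 to 0.11 on the log2 scale, and Tgfb3 over Tgfb1 in fibrosis against normal, which ran from -0.33 to 0.15. The remaining pairs, Smad7 over Smad6 and Ctgf over Tgfbi, also changed sign in schisandrin B against normal. They ran from -0.10 to 0.17 and from -0.16 to 1.05.

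**Figure D3:**
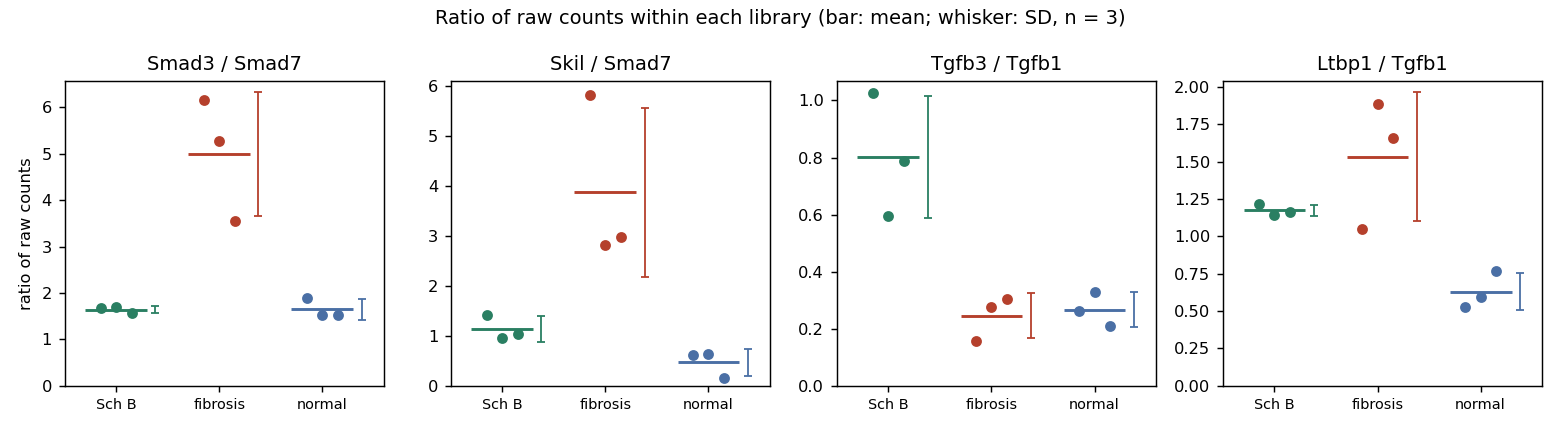
Ratio of raw counts of 2 genes within each library (vertical axes, linear from 0) for Smad3 over Smad7, Skil over Smad7, Tgfb3 over Tgfb1 and Ltbp1 over Tgfb1, with a point per library, a bar for the mean and a whisker for the SD. Fibrosis libraries reach 3.55 to 6.17 for Smad3 over Smad7, and schisandrin B libraries reach 0.597 to 1.02 for Tgfb3 over Tgfb1, above all other libraries in each case.

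The wider pathway was described by 74 further genes in 5 lists, of which 69 were tested. In fibrosis against normal 27 rose and 9 fell, 52.2% called beside 48.3% of all tested genes, with a median of 0.27 against 0.03 for all tested genes on the log2 scale. With library totals 32 rose and 2 fell, a setting that called 51.9% of all tested genes, with 74.7% of those calls higher. The median of the 10 members was -0.35. In schisandrin B against fibrosis 9 rose and 25 fell, 49.3% called beside 47.3% of all tested genes. The median was -0.21 against -0.03 for all tested genes and -0.61 for the members. With library totals 3 rose and 33 fell there, where 47.8% of all tested genes were called and 32.6% of those calls were higher. In schisandrin B against normal 8 rose and 3 fell, 15.9% beside 10.5% of all tested genes, with a median of -0.11 against 0.00 for all tested genes.

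Extracellular control genes split. Of 17 tested genes for latency, binding and activation, 6 rose and 4 fell in fibrosis against normal, and 4 rose and 5 fell in schisandrin B against fibrosis. These are 58.8% and 52.9% of the list, near the 48.3% and 47.3% of all tested genes. Itgb1, the integrin chain that pairs with alpha v to bind the latent complex, had 85.1, 76.0 and 79.9 CPM in schisandrin B, 355, 163 and 217 CPM in fibrosis, and 85.2, 87.1 and 86.7 CPM in normal libraries. It rose 2.83-fold with fibrosis (edgeR adjusted p 0.000503) and fell by 1.61 with schisandrin B (adjusted p 0.000366), and Itgav, alpha v itself, changed by 1.61 and -1.92. Furin, the convertase that cuts the TGF-beta precursor, moved the other way, at 309, 362 and 318 CPM in schisandrin B, 158, 138 and 124 CPM in fibrosis, and 300, 354 and 378 CPM in normal libraries. It fell by 1.29 on the log2 scale with fibrosis (edgeR adjusted p 0.000185) and rose by 1.23 with schisandrin B (adjusted p 0.000278), in 19 of 19 alternatives for each. Itgb5 and the latency gene Ltbp4 fell with fibrosis, by 0.80 and 0.87, calls that library totals ended (adjusted p 0.0793 and 0.131). Ltbp4 rose by 0.64 with schisandrin B, a call lost with library totals (0.198), without fibrosis replicate 2 (0.0753) and without schisandrin B replicate 1 (0.0727). Mmp2, a gelatinase able to activate TGF-beta, was higher than normal by 1.69 ± 0.24 in schisandrin B libraries (edgeR adjusted p 0.00143) and by 1.18 in fibrosis libraries (adjusted p 0.00182).

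Of the 5 receptor genes 1 fell and 0 rose in each of the first 2 comparisons, 20% of them beside 48.3% and 47.3% of all tested genes. Tgfbr2, the type II receptor that binds the ligand, fell by 0.64 with fibrosis (edgeR adjusted p 0.0207), a call lost without fibrosis replicate 2 (0.0551), fibrosis replicate 3 (0.0665) or normal replicate 3 (0.0744) and with library totals (0.272). Tgfbr1, the signalling type I receptor, was called in no comparison, with a value of 0.17 ± 0.33 in fibrosis against normal (edgeR adjusted p 0.693) and 0.25 ± 0.33 in schisandrin B against fibrosis (adjusted p 0.557). The co-receptor gene Tgfbr3 fell by 0.69 in schisandrin B against fibrosis (edgeR adjusted p 0.0148), and lost the call without fibrosis replicate 3 (0.062), schisandrin B replicate 1 (0.054) or schisandrin B replicate 3 (0.0688).

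Of 14 other Smads and Smad regulators 8 rose and 1 fell with fibrosis, and 0 rose and 6 fell with schisandrin B. Over all tested genes 25.4% rose and 22.9% fell with fibrosis, and 22.5% rose and 24.8% fell with schisandrin B. Smad4, the partner of all receptor-activated Smads, had 25.5, 22.5 and 23.1 CPM in schisandrin B, 55.8, 46.4 and 49.7 CPM in fibrosis, and 22.9, 24.4 and 28.6 CPM in normal libraries. It rose by 1.00 ± 0.16 (edgeR adjusted p 0.000374) and fell by 1.09 (adjusted p 0.000237) in these comparisons. Tgif1, a homeobox corepressor of Smads, had 16.5, 16.6 and 13.0 CPM in schisandrin B, 198, 118 and 59.3 CPM in fibrosis, and 10.1, 12.4 and 14.7 CPM in normal libraries, so that it rose by 3.33 ± 0.38 with fibrosis (edgeR adjusted p 5.82e-05) and fell by 3.02 with schisandrin B (adjusted p 0.000114). The ubiquitin ligase genes Nedd4l, which limits active Smads, and Rnf111 (Arkadia), which degrades Smad7 and SnoN, fell by 1.04 and 1.33 with schisandrin B, and rose by 1.51 and 0.92 with fibrosis. Ski, the close relative of Skil, did not share its direction: it fell by 0.79 with fibrosis (edgeR adjusted p 0.00578), and the call was lost with library totals (-0.37, adjusted p 0.153). Pmepa1, a TGF-beta-induced inhibitor of Smad phosphorylation, was higher than normal in schisandrin B libraries by 2.07 ± 0.48 (adjusted p 0.0184), a call lost without normal replicate 1 (0.072) or 2 (0.0555) or schisandrin B replicate 1 (0.0728) or 2 (0.0537).

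Of 20 tested target genes 10 rose and 1 fell with fibrosis, and 5 rose and 10 fell with schisandrin B, 55% and 75% of the list beside 48.3% and 47.3% of all tested genes. Cdkn1a, a cell cycle inhibitor that p53 induces as well, had 8.70, 5.98 and 5.75 CPM in schisandrin B, 138, 75.0 and 55.5 CPM in fibrosis, and 0.945, 1.63 and 1.21 CPM in normal libraries, and was called higher than normal in both CCl4 groups. Acta2, smooth muscle actin of myofibroblasts, rose by 1.54 with fibrosis and fell by 1.86 with schisandrin B, both in 19 of 19 alternatives. Snai2, a transcriptional repressor, averaged 1.57, 0.405 and 4.65 CPM in schisandrin B, fibrosis and normal libraries. It fell by 3.46 with fibrosis and rose by 1.88 with schisandrin B, and both values rest on only 18 counts over the fibrosis libraries. Snai2 stayed lower than normal with schisandrin B (-1.57, edgeR adjusted p 0.0125), a call lost without schisandrin B replicate 2 (0.0651) or 3 (0.0527). Bhlhe40, a basic helix-loop-helix repressor, averaged 39.8 CPM in schisandrin B and 151 CPM in normal libraries (-1.93, edgeR adjusted p 0.0349), and lost the call without normal replicate 2 (0.0782) or 3 (0.115), or schisandrin B replicate 1 (0.0941), 2 (0.108) or 3 (0.121).

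Nox4 and Col1a1 were higher with schisandrin B than in either other group. Nox4, a hydrogen peroxide-producing oxidase induced by TGF-beta in fibroblasts, had 14.0, 21.1 and 29.4 CPM in schisandrin B libraries and 3.89, 4.09 and 0.470 CPM in fibrosis libraries, with 1 count in all normal libraries together. It rose by 2.96 ± 0.60 in schisandrin B against fibrosis (edgeR adjusted p 0.00255). The ratio of pooled rates of schisandrin B to normal was 836 with an exact 95% counting interval of 150 to 33072, and that of fibrosis to normal was 100.1 with an interval of 17.6 to 3989. Col1a1, a fibrillar collagen chain of scar, had 64.4, 25.2 and 27.6 CPM in schisandrin B, 10.04, 8.17 and 21.5 CPM in fibrosis, and 7.64, 11.6 and 11.4 CPM in normal libraries. Its rise of 1.55 ± 0.44 in schisandrin B against fibrosis (edgeR adjusted p 0.015) was lost without fibrosis replicate 1 (0.0835) or 2 (0.0532), with library totals (0.0574) and without a low-count filter (0.0631). Col1a1 was also higher than normal in schisandrin B libraries (1.93, adjusted p 0.0235), a call lost without normal replicate 1 (0.0846), 2 (0.0624) or 3 (0.0721) or schisandrin B replicate 1 (0.0601). In fibrosis against normal, the collagen targets Col1a1, Col1a2 and Col3a1 were not called. Their means were 13.2, 18.7 and 221 CPM in fibrosis and 10.2, 16.6 and 202 CPM in normal libraries. Col1a2 and Col3a1 were called higher in schisandrin B than in fibrosis libraries, calls lost in 10 and 9 of 19 alternatives. Lox, a collagen crosslinking enzyme, had 5.73, 4.16 and 1.10 CPM in schisandrin B, 1.70, 1.36 and 1.53 CPM in fibrosis, and 0.429, 0.203 and 0.567 CPM in normal libraries. It was higher than normal in schisandrin B libraries (3.19 ± 0.61, edgeR adjusted p 0.0074) and in fibrosis libraries (1.94 ± 0.62, adjusted p 0.0233). Both values rest on only 15 Lox counts over the normal libraries. The fibrosis call was lost without normal replicate 1 (0.058) or 2 (0.0905) and with limma voom (0.0607). Schisandrin B and fibrosis libraries overlapped for Lox, with no call between them (1.26 ± 0.52, edgeR adjusted p 0.0671) except without schisandrin B replicate 3 (1.69, adjusted p 0.00883) and with upper-quartile scaling (1.38, adjusted p 0.0472).

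**Figure D4:**
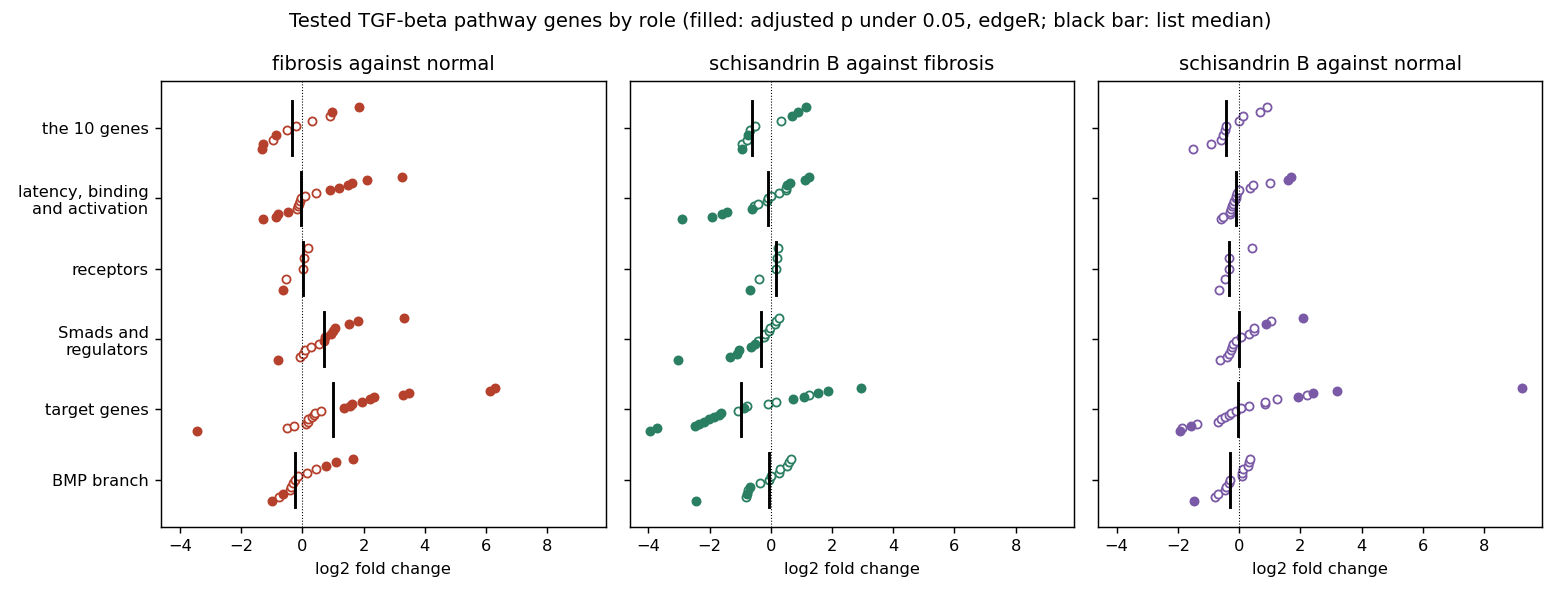
Log2 fold change (horizontal axes, shared) of the 10 genes and of the 69 tested further pathway genes by role, in 3 comparisons, with a point per gene, filled where the edgeR adjusted p was under 0.05, and a black bar at the list median. Of the Smads and regulators, 8 are filled above 0 in fibrosis against normal and 6 below 0 in schisandrin B against fibrosis, and Nox4 is the point farthest right in the third panel.

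The BMP branch, which shares Smad4 and the inhibitory Smads, was called in 5 of 13 tested genes with fibrosis and in 3 with schisandrin B, 38.5% and 23.1% of the list, below the 48.3% and 47.3% of all tested genes. Its mediators Smad1 and Smad5 rose by 1.08 and 0.77 with fibrosis and fell by 0.79 and 0.68 with schisandrin B, the Smad1 fall with an edgeR adjusted p of 0.0438 and a call lost in 12 of 19 alternatives, 7 of which leave out a library (fibrosis replicate 1 or 2, normal replicate 2 or 3, or any schisandrin B library) and gave adjusted p-values of 0.0541 to 0.155. Id1 and Id3, its immediate response genes, were called in none of the 3 comparisons. Without fibrosis replicate 1, Id3 was called lower in fibrosis than in normal (-0.52, adjusted p 0.0232) and higher in schisandrin B than in fibrosis (0.64, adjusted p 0.00874), and with library totals Id1 was called lower in schisandrin B than in fibrosis (-1.06, adjusted p 0.0416). Id2 was lower than normal in schisandrin B libraries by 1.48 on the log2 scale (-1.48 ± 0.31, edgeR adjusted p 0.0118), and the call was lost without schisandrin B replicate 2 (0.055) or 3 (0.0593).

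For the 3 members called in 2 comparisons with a mean of at least 5 CPM, the nearest profiles among 8798 genes were sought by the root mean square difference of centred log2 CPM over the 9 libraries. Ltbp1 was nearest to Fbxo34 (0.10), Rab3gap2 (0.12) and Flii (0.12). Smad7 was nearest to Pigr (0.12), Ppp6r2 (0.12) and Acox3 (0.13), and Tgfbi to Macrod1 (0.11), Dll4 (0.13) and Crp (0.13). None of these 9 genes is in the pathway lists. The lists hold only 69 of the 14581 tested genes, so this absence says little about the members.

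In bulk liver RNA, fewer cells of a type and less RNA per cell cannot be told apart. The summed level of 8 hepatocyte markers was 203183 to 227381 CPM in schisandrin B, 73463 to 119759 CPM in fibrosis and 238168 to 273978 CPM in normal libraries. That of 8 stellate cell markers was 422 to 452, 200.5 to 306 and 256 to 495 CPM in the same order, with Lrat lower and Des and Cygb higher in fibrosis than in normal libraries. Kupffer cell markers, 6 of 7 found, summed to 501 to 720, 573 to 1125 and 951 to 1448 CPM, and 7 sinusoidal endothelial markers to 356 to 370.3, 287 to 390 and 412 to 526 CPM. Cholangiocyte markers summed to 12.5 to 27.3, 50.8 to 63.1 and 19.4 to 24.9 CPM, and 5 platelet markers to 19.3 to 30.3, 15.9 to 26.5 and 26.5 to 30.2 CPM. Of the platelet markers, Itga2b was the largest part, with means of 20.5, 18.1 and 26.9 CPM and no call in any comparison. Pf4 was called higher than normal in fibrosis (1.10, edgeR adjusted p 0.0463) and in schisandrin B libraries (1.42, adjusted p 0.0495). Too low to be tested, Gp9 and Ppbp had 0 counts over the schisandrin B libraries, 4 and 1 over the fibrosis libraries and 5 and 9 over the normal libraries, and Gp1bb had 0, 2 and 0. The sum of 7 T and NK cell markers, 64.0 to 93.3, 50.4 to 93.2 and 93.6 to 138 CPM, was mostly Cd4, with means of 67.4, 68.2 and 103 CPM. Cd3e, Cd3g, Cd8a and Nkg7 were called lower in fibrosis than in normal libraries and not called in schisandrin B against normal, and Nkg7 was called higher in schisandrin B than in fibrosis libraries. Alb was the largest part of the hepatocyte sum, with means of 141271, 50982.5 and 172058 CPM in the same order. Of the 8 hepatocyte markers 6 were called lower in fibrosis than in normal libraries, and Serpina1 and Fgb were not called. Epcam was the largest part of the cholangiocyte sum. Of 4 tested cholangiocyte markers 2, Krt19 and Epcam, were called higher in fibrosis than in normal libraries. The hepatocyte and cholangiocyte sums in fibrosis libraries lay apart from both other groups, as Ltbp1, Smad7 and Tgfbi did, and the part of these cell types in the results was not tested.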

How the data were processed

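The authors deposited one table of unnormalized read counts by gene symbol, covering 9 rat liver libraries made from total RNA with Ion Proton protocols per the labels. How reads were aligned and counted, and on which strand, was not given in the sources used here. Organism and build fields name mouse and GRCm38 but a rat strain, and 1317 symbols starting RGD, 1687 starting Olr and 54 starting RT1 are rat names, so no positions or sequences are printed (rat reference sequence was not used here). The file holds 0 columns of other samples.

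The re-analysis used edgeR 4.0.16 (R 4.3.3) with filterByExpr, TMM factors, and a robust quasi-likelihood fit to all 9 libraries with a mean per group, no covariate and F tests of 3 comparisons. The SE is the log2 fold change over the square root of F. A floor of 3 counts is 0.176 to 0.287 CPM. A simulation planted 200 changes among 14581 genes in each comparison. It recovered 27% and 84% of 2-fold and 4-fold changes in schisandrin B against fibrosis, with 11.2% of calls false. These values were 33%, 83% and 0.855% in fibrosis against normal, and 23%, 88% and 4.31% in schisandrin B against normal. Far more genes were called in the real data (47.3% in schisandrin B against fibrosis). The simulated rates therefore need not hold there.

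The members and lists were chosen with earlier results of these data known. Named pathway genes are up to 5 called higher and 5 called lower per comparison with the lowest adjusted p. Itgav, the receptors, Acta2, Col1a2, Col3a1, Smad1, Smad5, Id1 and Id3, and the values of rule-named genes in their other comparisons, were named after their values were seen. Alternatives used DESeq2 1.42.0 and limma 3.58.1, other scalings, filters and fits, and omission of each library. Figures used Python 3.11.15 and matplotlib 3.10.9. Some genes of the lists are counted in them but not reported here by name.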

Additional observations from a re-analysis of the deposited data

How the results depend on the processing

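No called change of the 10 genes turned its direction under any alternative. Of the 95 alternative values of the 5 calls in fibrosis against normal 89 kept the call and 6, all for Smad6, lost it, and in schisandrin B against fibrosis 80 kept it and 15 lost it (9 for Smad3, 4 for Tgfb3 and 2 for Tgfbi). With an adjusted p under 0.01, 2 members and 19 of 69 pathway genes were called in schisandrin B against fibrosis, beside 32.8% of all tested genes. In schisandrin B against normal 4 pathway genes were called at that threshold, beside 3.75% of all tested genes. For the same comparison edgeR without a low-count filter called 1 member, beside 6.15% of all genes it tested. DESeq2 called 2 members and 20 pathway genes (15% of all genes it tested). A fit of only the 2 groups compared called 2 and 21 (21.1%), beside 10.5% of all tested genes in the edgeR fit of all groups. Leaving out 1 library at a time gave 4 to 6 members and 29 to 36 pathway genes in fibrosis against normal (40.1% to 47.8% of all tested genes), 3 to 5 and 23 to 35 in schisandrin B against fibrosis (37.4% to 46.3%), and 0 to 2 and 6 to 19 in schisandrin B against normal (4.62% to 18.5%). Within schisandrin B against fibrosis the lowest member count, 3, came without schisandrin B replicate 3. Within schisandrin B against normal the highest pathway count, 19, and the highest share of all genes came without fibrosis replicate 1. The cause of these shifts was not tested. Depth limits Tgfb2 most, which the filter of 5 CPM removed. No paired analysis was possible because the labels give no pairing of libraries between groups. The labels carry no replicate numbers, and those used here follow the order of the samples within each group.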
